A study of Mus musculus with 2 samples.

Results

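The genes described here are 8 mouse genes whose human counterparts or mouse mutants are tied to polycystic kidney or liver disease or to tuberous sclerosis: Pkd1, Pkhd1, Bicc1, Cys1, Prkcsh, Sec63, Tsc1 and Tsc2. They were chosen by symbol, as all probe sets that the platform annotation assigns to them, out of 18193 genes named by a probe set that names 1 gene. The 8 genes were read by 17 probe sets, and none of these probe sets named a further gene. In the cystic kidney 1 of the 8, Bicc1, rose past 2-fold, by 2.41-fold, and all 3 of its probe sets showed it. Of all 12015 measured genes, 7.06% were at least 2-fold higher, so 1 of 8 says nothing about the genes as a group. Cys1, Pkhd1 and Sec63 were 1.52-fold, 1.40-fold and 1.40-fold higher, and Pkd1, Tsc2 and Tsc1 were 1.17-fold, 1.16-fold and 1.13-fold higher. Prkcsh was 0.977-fold of the control. With 1 array per group none of these differences could be tested.

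Polycystic kidney disease genes act at several places in the cell. Polycystin-1 and fibrocystin, the products of Pkd1 and Pkhd1, are large membrane proteins found on the primary cilium of tubule cells, and cystin, the product of Cys1, is a small lipid-anchored protein of the cilium membrane. Prkcsh and Sec63 serve the folding and import of membrane proteins in the endoplasmic reticulum and are genes of polycystic liver disease. Tsc1 and Tsc2 form a complex that holds back the growth kinase mTOR, and Bicc1 binds messenger RNAs in the cytoplasm of tubule cells. Loss of these genes, in patients or in mice, lets kidney tubules or bile ducts widen into cysts, or, for the TSC genes, causes kidney tumours and cysts.

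Whole kidney RNA was measured on 2 Affymetrix arrays, 1 for each kind of mouse. By the series design the mice were 4 weeks old. The control sample had wild-type Invs alleles (+/+) and the cystic sample was inv/inv, homozygous for the inv mutation, which models nephronophthisis type 2. Both carried the inv-deltaC::GFP transgene, which encodes inversin without its C-terminus joined to green fluorescent protein, so the control is transgenic too and not a plain wild type. The series design mentions 2 kidneys, without making clear whether these were pooled or how many animals gave each RNA, and the promoter of the transgene is not stated in the sources used.

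Several measurements on the whole arrays bear on all values below. The cystic array is labelled female, and no sex is given for the control. On the cystic array the 3 Xist probe sets, for the RNA that coats the inactive X chromosome of females, had signals of 2.3, 14.2 and 57.4, all under the floor of 61.9. On the same array 6 of 9 probe sets of the Y-linked genes Kdm5d, Uty and Eif2s3y had signals of 90.1 to 197.6, above the floor. The values of the cystic array therefore go against its female label. On the control array 2 Xist probe sets had signals of 281.6 and 387, and the same 6 Y-linked probe sets had 65.9 to 205.7, so both kinds of signal were present. Sex makeup and genotype cannot be told apart here. The mutated gene Invs was above the floor at 1 of 3 probe sets in the control (118) and at none in the cystic kidney (15.9 at the same probe set). The kidney label fitted its markers, with all 10 proximal tubule genes of the marker list above the floor on both arrays.

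The signal is the linear MAS5 intensity of a probe set. The median signal of an array served as its floor, 55.4 on the control and 61.9 on the cystic array, and probe sets below both floors were taken as not measured. Of the 17 probe sets, 15 were above the floor on both arrays and 2 were under it on both, so no value of the 8 genes is a bound. The 2 probe sets that were not measured were the second Cys1 probe set, 1419071_at, with 16.9 in the control and 27.9 in the cystic sample, and the Tsc1 probe set 1439989_at, with 24.7 and 36.9. All 8 genes kept at least 1 measured probe set. Each gene took the value of its brightest measured probe set. Log2 ratios are cystic minus control, and the words rose and fell refer to a fixed 2-fold limit, not to a test.

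**Figure D1:**
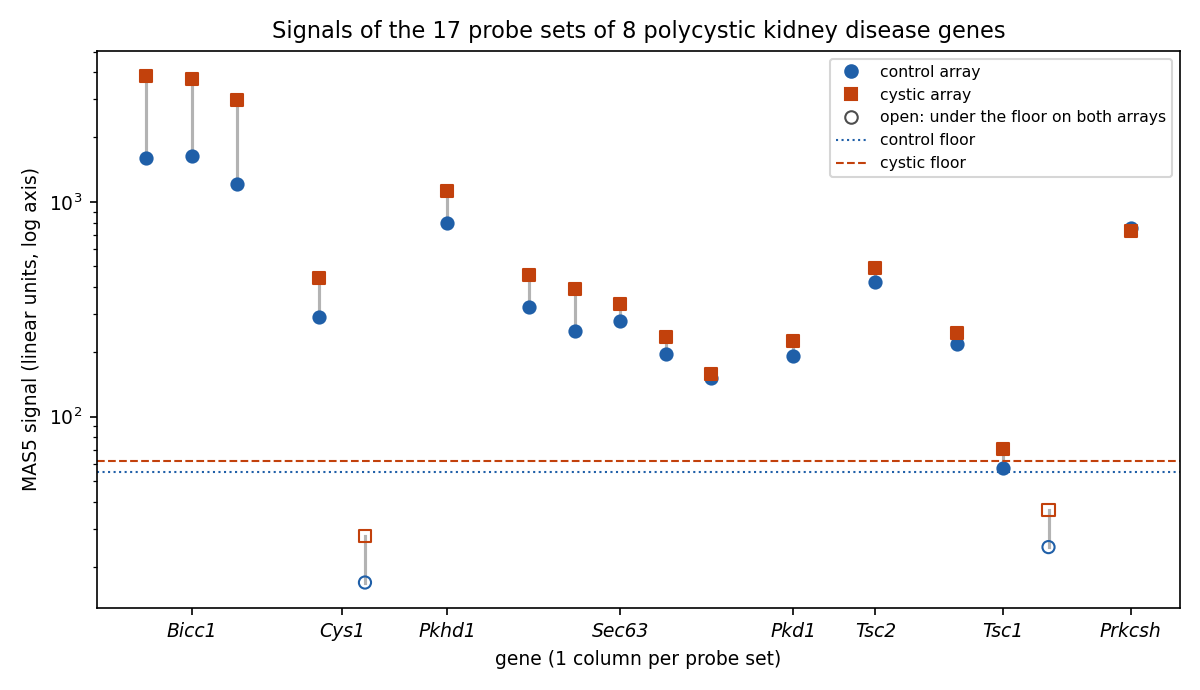
MAS5 signal (linear units on a log axis) of each of the 17 probe sets on the control array (circles) and the cystic array (squares), grouped by gene; open symbols lie under the floor on both arrays and the lines mark the floors of 55.4 and 61.9. The 3 Bicc1 probe sets show the widest gaps between the arrays among the measured probe sets, and the Prkcsh symbols nearly coincide.

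Bicc1 encodes an RNA-binding protein with KH domains and a SAM domain, and mice without it form kidney cysts. Its probe set 1423484_at went from a signal of 1598.9 on the control array to 3847.7 on the cystic array. Probe set 1436029_at went from 1630.6 to 3731.9, and 1441137_at from 1210.3 to 2963.4. Every Bicc1 probe set was far above the floor and higher on the cystic array. Their log2 ratios were 1.27, 1.19 and 1.29, that is 2.41-fold, 2.29-fold and 2.45-fold, with an SD of 0.051 (n = 3 probe sets of the same RNA, a technical repeat). Bicc1 was thus past 2-fold at each probe set and the probe sets lay closer together than the pooled SD of 0.29 between probe sets of a gene, over 4694 genes.

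For comparison, 79 genes had at least 3 probe sets above the floor on both arrays and a brightest probe set at least 2-fold higher, and in 27 of them (34.2%) every such probe set was at least 2-fold higher. Bicc1 is 1 of these 27. Among the 1124 genes with 3 such probe sets, the spread from the lowest to the highest log2 ratio had a median of 0.38. It was 0.097 for Bicc1, and 4.09% of these genes had a narrower one. The agreement shows that the Bicc1 difference between these 2 RNAs does not rest on 1 probe set. It does not measure how much kidneys of a group differ from each other.

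Among all 12015 measured genes, 848 (7.06%) were at least 2-fold higher and 454 (3.78%) at least 2-fold lower in the cystic kidney. Of the 8 genes 1 was higher by that limit and 0 lower. Beside that background, a single call among 8 genes says nothing about the genes as a group. With each array divided by its median signal the split over all genes became 609 higher and 672 lower, and Bicc1 was the same 1 of 8 higher, at 2.15-fold. The log2 ratio of Bicc1 was above that of 95.9% of all measured genes, and 487 genes had a higher one.

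Cystin, encoded by Cys1, is the protein lost in the cpk mouse, a much used model of recessive polycystic disease. Its measured probe set, 1419070_at, had a control signal of 292 and a cystic signal of 443.8, a log2 ratio of 0.60. Its other probe set lay under the floor on both arrays, so the Cys1 value has no repeat measurement. The log2 ratio was above that of 84.3% of measured genes and under the 2-fold limit.

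Pkhd1 is the gene of autosomal recessive polycystic kidney disease. Its only probe set, 1419820_at, had a control signal of 798.3 and a cystic signal of 1119.7, a log2 ratio of 0.49, which was above that of 79.5% of measured genes. Pkd1, the gene most often mutated in autosomal dominant polycystic kidney disease, also had a single probe set, 1460210_at, with 192.3 and 225.6. Its log2 ratio of 0.23 lay within the pooled SD between probe sets (0.29) of 0. For neither of these ciliary membrane proteins was a difference past 2-fold measured, and the transcript of Pkd1 was at nearly the same level on both arrays.

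**Figure D2:**
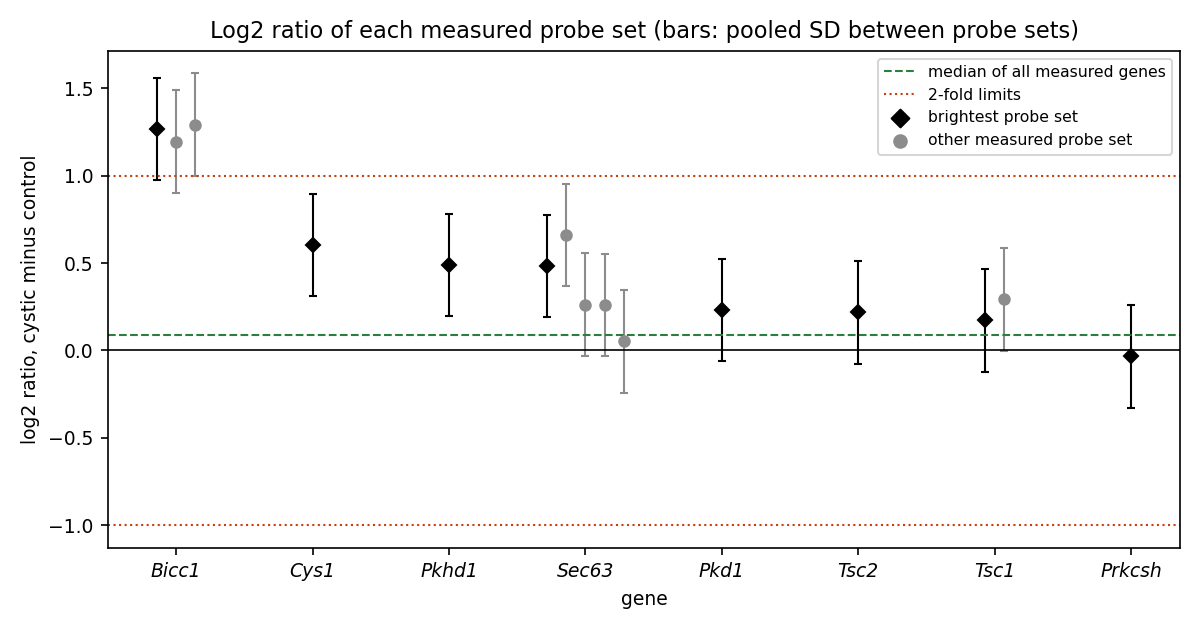
Log2 ratio, cystic minus control, of the 15 measured probe sets, ordered by the value of each gene's brightest probe set (diamonds); bars are the pooled SD of 0.29 between probe sets over 4694 genes, dotted lines mark 2-fold and the dashed line the median of all measured genes (0.089). The 3 Bicc1 probe sets (1.19 to 1.29) lie above all 12 measured probe sets of the other 7 genes (-0.034 to 0.66).

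Sec63 and Prkcsh belong to the endoplasmic reticulum. Sec63 encodes a membrane protein of the channel through which new proteins enter, and Prkcsh the beta subunit of glucosidase II, which trims sugar chains of new glycoproteins. Sec63 had the most probe sets of the 8 genes, and all 5 were above the floor. The brightest, 1419819_s_at, had a control signal of 324.6 and a cystic signal of 454, and 1424926_at had 249.5 and 394.5. Both were higher on the cystic array, with log2 ratios of 0.48 and 0.66. Probe sets 1424924_at (279.6 to 335.3) and 1424925_at (195.5 to 234.1) had log2 ratios of 0.26 each. The dimmest, 1452854_at, had 151.9 and 157.4, a log2 ratio of 0.051.

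All 5 Sec63 probe sets were higher on the cystic array, by 1.04-fold to 1.58-fold, with an SD of 0.23 (n = 5 probe sets) and a median log2 ratio of 0.26. The size of the Sec63 difference therefore depended on which probe set was read, from about that of Cys1 to nearly none. The span of 0.61 is close to the median of 0.58 over the 251 genes with at least 5 probe sets above the floor on both arrays, so this is an ordinary disagreement on these arrays. The brightest probe set carries the suffix _s_at, which marks probes shared by several transcripts, and without it the value of Sec63 would be 0.66. With the arrays scaled to their medians, by quantiles or by loess, 1452854_at went below 0 (-0.11, -0.14 and -0.10), so 4 of 5 Sec63 probe sets were then higher.

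Prkcsh was the only gene of the 8 with a log2 ratio below 0. Its probe set, 1416339_a_at, had a control signal of 752.3 and a cystic signal of 734.9, a log2 ratio of -0.034, well inside the pooled SD between probe sets. The signals were 13.6 and 11.9 times their floors, so the near equality does not come from a signal at the floor. Its log2 ratio was above that of 39.5% of measured genes.

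The Tsc1 product hamartin and the Tsc2 product tuberin work as a complex, and the human TSC2 and PKD1 genes lie side by side, so that a deletion of both causes severe childhood cysts. In the RefSeq annotation of the mouse, Pkd1 and Tsc2 are also neighbours, on chromosome 17. Tsc2 had a control signal of 424.2 and a cystic signal of 493.4 at its only probe set, 1452105_a_at, a log2 ratio of 0.22. The neighbour Pkd1 had 0.23. Tsc1 had 216.7 and 244.2 at its brightest probe set, 1455252_at, a log2 ratio of 0.17. Its probe set 1422043_at had 57.6 and 70.5, both just above the floors, and a log2 ratio of 0.29.

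The values of Tsc1 and Tsc2 lay within the pooled SD of 0.29 from 0, and within it from each other. Divided by the median signal of each array, they were 0.012 and 0.058. So no difference of the TSC genes beyond the spread between probe sets was measured. That spread is technical, and the spread between kidneys was not measured.

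Over the 8 genes the median log2 ratio was 0.36, beside 0.089 over all measured genes. Without Bicc1 the median of the other 7 was 0.23. A log2 ratio above 0 was seen in 7 of the 8 genes, and in 57.8% of all measured genes. Under the array scaling by the median signal the median over all genes moved from 0.089 to -0.071 and that of the 8 genes to 0.20, which left the gap between them at 0.27. With the median over a gene's probe sets in place of the brightest, the gap was 0.16. These medians describe the chosen genes and were not tested.

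**Figure D3:**
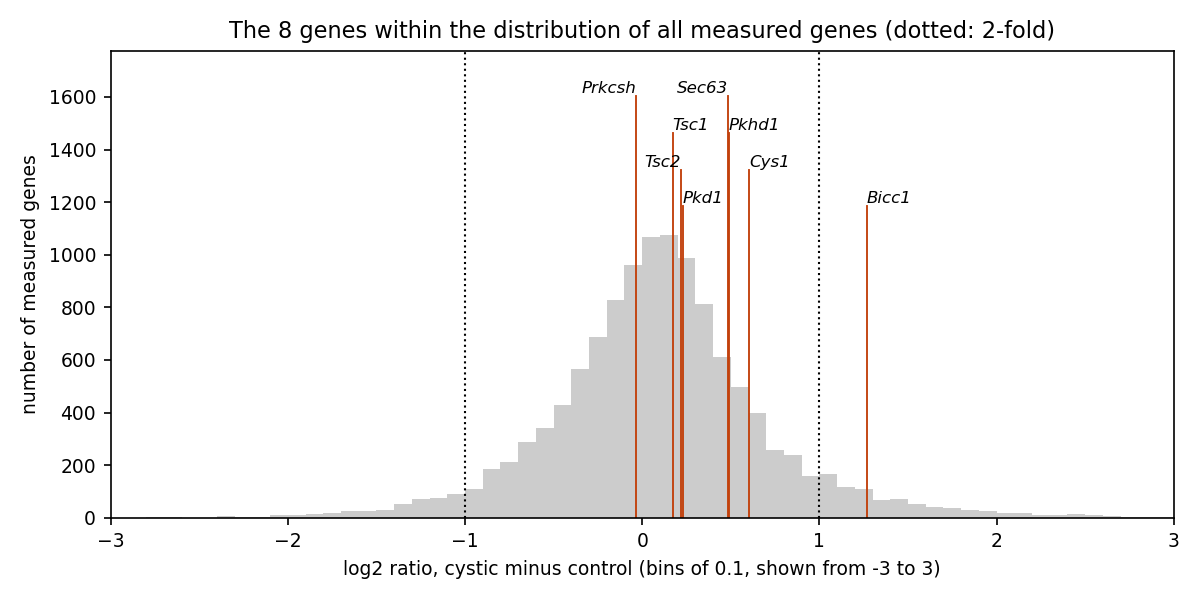
Number of measured genes (y axis) by log2 ratio, cystic minus control (x axis, bins of 0.1, shown from -3 to 3), with a line at the value of each of the 8 genes and dotted lines at 2-fold. Bicc1 (1.27) stands in the right shoulder beyond 2-fold, and the other 7 genes lie between -0.034 and 0.60 in the body of the distribution.

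The partners of these genes were described from gene lists. The list of the polycystin family and relatives of fibrocystin held 8 genes. Pkd2, Pkd1l1 and Pkd1l3 had no probe set that names 1 gene, so their transcripts were not read here. The other 5 genes had probe sets, and none of the 5 was above the floor on either array. They were Pkd1l2 (51.5 on the control and 35.1 on the cystic array), Pkd2l1 (13 and 14.1), Pkd2l2 (33.5 and 37.7 as the higher of its probe sets on each array), Pkdrej (35.6 and 40.1) and Pkhd1l1 (9.5 and 21.2). With the floor at the 40th percentile 2 of these 5 relatives counted as measured.

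Around Sec63 and Prkcsh, 23 of 24 listed genes of glycoprotein maturation and protein translocation in the endoplasmic reticulum were measured. Of these 0 were past 2-fold in either direction, beside 7.06% (higher) and 3.78% (lower) of all genes. The median log2 ratio of the list was 0.080, close to that of all genes (0.089). The highest were Uggt1, which tags misfolded glycoproteins for another round of folding (0.60, second probe set 0.54), and the channel subunit Sec61a2 (0.44, second 0.42). The second Uggt1 value is a bound, since that probe set was under the floor on the control array. The lowest were Sec62, a partner of Sec63 in the channel complex (-0.57, second -0.51), and Sil1, an exchange factor of the chaperone BiP (-0.46). Ganab, the catalytic subunit that Prkcsh binds, went from 890.9 to 696.8, a log2 ratio of -0.35.

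The signs of the complex partners differed: Sec63 was at 0.48 and Sec62 at -0.57. Each sign held at the other Sec63 probe sets in the deposited scaling and at the second Sec62 probe set. Sec62 had 5 measured probe sets, and the others are not given singly here. Across the settings, with the median over its probe sets among them, Sec62 lay between -0.73 and -0.39. Prkcsh was at -0.034 and Ganab at -0.35. These are differences between probe sets on 2 arrays and were not tested.

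Around Tsc1 and Tsc2, 25 of 28 listed genes of mTOR signalling were measured, 2 rose past 2-fold and 1 fell, which is 8% and 4% of the list beside 7.06% and 3.78% of all genes. The median was 0.093. Ddit4, a stress-induced protein that acts through the TSC complex to restrain mTOR, went from 454.7 to 1204.8, a log2 ratio of 1.41. Eif4ebp1, a repressor of translation that mTOR phosphorylates, went from 310.9 to 731.2, a log2 ratio of 1.23, and the second probe set gave 1.26. Prr5, a subunit that binds the rictor complex of mTOR, fell from 218.5 to 86.6, by 1.34 on the log2 scale. Mtor itself had a log2 ratio of -0.96 by the brightest probe set and -0.14 by the next, so its value depended on the probe set. Divided by the arrays' medians, Mtor became the second listed gene past 2-fold lower, with -1.12, and the median of the list went below 0 (-0.067), as it did with quantiles (-0.020) and loess (-0.020). That scaling also put the medians of the endoplasmic reticulum list (-0.080) and of the list around Cys1 (-0.084) below 0.

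Around Bicc1, 9 of 14 listed partners and cystic disease factors were measured. Of these 0 were past 2-fold, beside 7.06% (higher) and 3.78% (lower) of all genes. The median of the list was 0.30, and it was 0.14 with median scaling, 0.11 with quantiles and 0.15 with loess. The highest were the kidney transcription factor Pax8 (0.63, second probe set 0.23) and the ciliary motor subunit Kif3a (0.59, second 0.56), and the lowest Ift88, of the intraflagellar transport train (-0.59), and the transcription factor Cux1 (-0.30, second 0.24). Anks3, a SAM domain protein that binds Bicc1, had 0.28 from signals of 94.4 and 114.5 (second 0.67). By the brightest probe set of each gene, the highest partner value was 0.63, beside 1.27 for Bicc1.

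Around Cys1, 10 of 11 listed genes for the delivery of lipid-modified proteins to the cilium were measured. Of these 0 were past 2-fold, beside 7.06% (higher) and 3.78% (lower) of all genes. The median of the list was 0.076. The highest were Unc119, a carrier of myristoylated proteins (0.68), and the myristoyl transferase Nmt2 (0.50, second 0.29). The lowest were Cplane1, under the floor on the cystic array (a bound of -0.53), and Unc119b (-0.35, second -0.39). The second Cplane1 probe set, under the floor on the control array, gave a bound of 0.48. The paralogous carriers Unc119 and Unc119b had opposite signs.

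**Figure D4:**
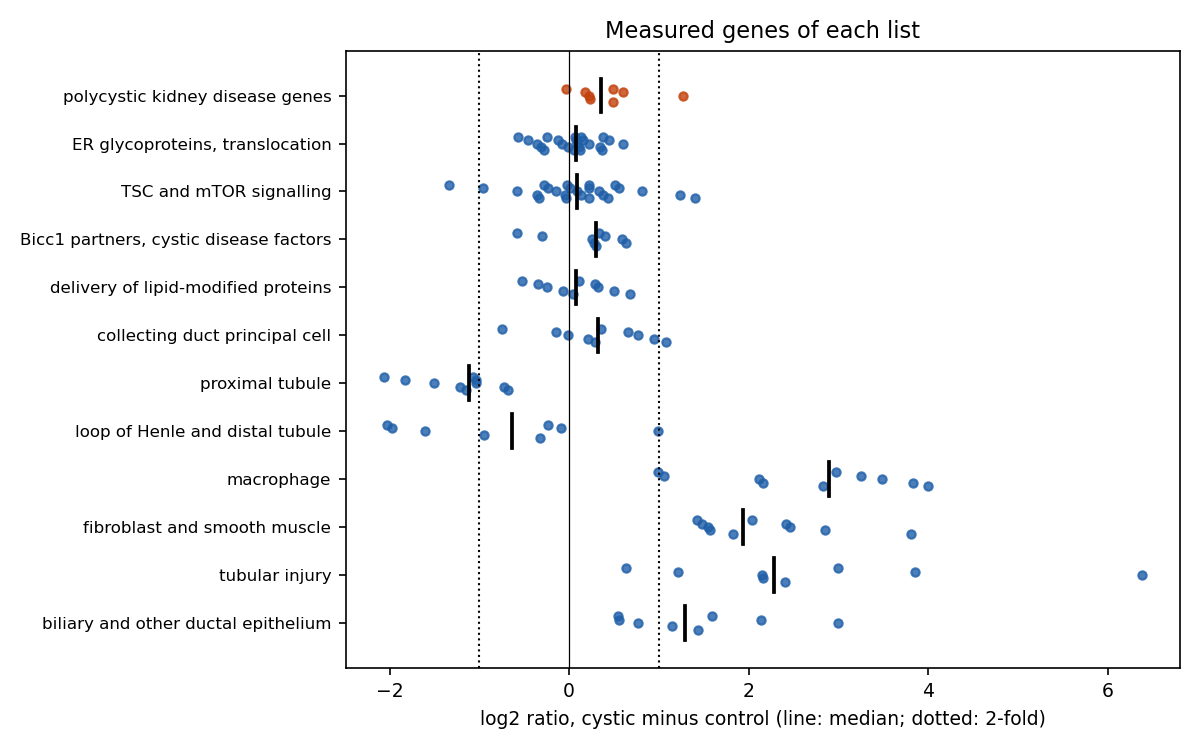
Log2 ratio, cystic minus control, of every measured gene (points) of the 8 polycystic kidney disease genes, of 4 lists of partner genes and of 7 lists of cell type and injury markers; black lines are medians and dotted lines mark 2-fold. The partner lists have medians from 0.076 to 0.30, while the proximal tubule markers lie at -1.11 and the macrophage markers at 2.90.

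Marker signals of several cell types differed between the arrays, and in whole kidney RNA fewer cells of a type and less RNA per cell cannot be told apart. The marker counts stand beside 7.06% (higher) and 3.78% (lower) of all measured genes past 2-fold. All 10 proximal tubule markers were lower, from Slc22a6 (-2.06) to Aqp1 (-0.68), with 8 past 2-fold (5 with quantile normalization and 4 with loess), and the summed signal of the list went from 42080 to 20275. For the loop of Henle and distal tubule 3 of 8 markers fell (4 with median scaling) and the median was -0.63. The values of this list ran from Calb1 (-2.03) to Cldn16 (0.99), the 1 marker above 0, and Umod was at -0.095. Principal cell markers of the collecting duct had a median of 0.32 over 10 genes, from Aqp3 (-0.75) to Gata3 (1.08, the 1 gene past 2-fold). Their summed signal was 6688 and 7847. The 1 of 10 is 10% of the list, near the 7.06% of all genes, and says nothing about these markers as a group. The Gata3 call was lost with median scaling, quantile normalization, loess and the floor at the 60th percentile, with a lowest value of 0.85.

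Markers of macrophages, fibroblasts and injured tubules were higher, beside 7.06% of all measured genes at least 2-fold higher. Of 10 macrophage markers 9 were past 2-fold (8 with median scaling). Their signals summed to 2182 in the control and to 10680 in the cystic kidney (Cd68 was under the control floor). Of 10 fibroblast and smooth muscle markers 10 were past 2-fold, with summed signals of 6718 and 29644. Tubular injury markers rose in 7 of 8 measured genes. Lcn2 went from 34.7, under the control floor, to 4610.3 in the cystic kidney. Havcr1 (48.6), Krt19 (27.7) and Krt20 (3.5) were also under the floor in the control. Lcn2, Havcr1, Krt19 and Krt20 thus counted as measured only through the cystic array, and their ratios are bounds. Keratins, claudins and other genes of ductal epithelium rose in 5 of 8 (4 with median scaling). Their median was 1.29 and their summed signal 5496 and 10723, which is 1.95-fold. Krt19 is in both of the last lists. The part of any of these cell types, or of injury, in the Bicc1 difference was not tested. With 2 arrays no likeness of pattern between Bicc1 and other genes could be computed.

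**Figure D5:**
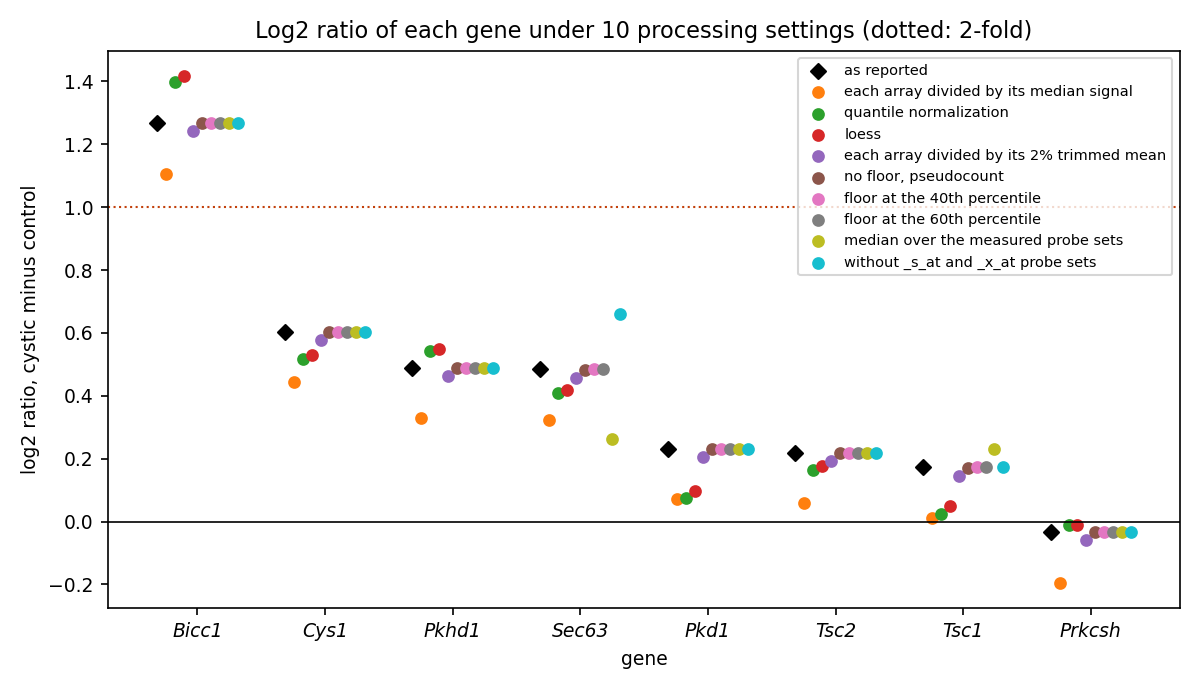
Log2 ratio, cystic minus control, of each of the 8 genes as reported (diamonds) and under 9 other settings of scaling, floor and probe set choice (circles); the dotted line marks 2-fold. Bicc1 lies between 1.11 and 1.42, above 2-fold in every setting shown, Prkcsh lies below 0 in every setting, and the other 6 genes lie between 0.012 and 0.66.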

How the data were processed

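Whole kidney RNA of 1 control and 1 cystic mouse group was hybridised to 1 Affymetrix array each. The deposited intensity of a probe set is a linear signal made by the authors with MAS5, per the submitters' processing notes. The version, the scaling target and any detection calls are not stated in the sources used. The deposited scaling was kept (2% trimmed means of 178 and 181). Of 45101 probe sets, 64 controls were left out. Gene names came from the platform annotation and were updated by gene identifier with RefSeq's GRCm38.p6 table: 34945 named 1 gene, 932 several and 9160 none here. Floors, log2 ratios and the choice of the brightest probe set were computed with Python 3.11.15, pandas 2.3.3 and statsmodels 0.14.6 (loess span 0.4). This left 12015 measured genes. Steps were tested on simulated data. No p-value was computed, since each group has 1 array, and the number of arrays limits the precision.

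The genes named are all probe sets of the 8 members and, from each partner list, the 2 highest and 2 lowest measured genes and those past 2-fold; marker lists are given by counts and ranges. Ganab, Anks3 and the relatives of the polycystins were named after their values were seen. The members and lists were chosen with earlier results of these data known. Alternatives covered 4 scalings, 3 floors (none with a pseudocount of 1, and the 40th and 60th percentiles), the median over probe sets and leaving out shared probe sets.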

Additional observations from a re-analysis of the deposited data

How the results depend on the processing

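Under 9 alternatives Bicc1 was the 1 of 8 genes past 2-fold in each, with log2 ratios from 1.11 (arrays divided by their median signal) to 1.42 (loess), and 0 of the 8 were past 2-fold lower. All 72 values of the 8 genes under the alternatives lay within the pooled SD between probe sets (0.29) of the reported value, and none changed sign. The median of the 8 genes ranged from 0.20 to 0.36. With no floor, the share of all genes past 2-fold moved to 10.9% higher and 8.35% lower, over 18193 genes, since dim probe sets then count. The spread between kidneys of a group was not measured, as there is 1 array per group, and for Pkd1, Pkhd1, Cys1, Prkcsh and Tsc2 a single measured probe set gave the value. No paired analysis was possible because each group has 1 array.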
